A study of Mus musculus with 20 samples.

Results

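The liver acts on other organs through secreted proteins, the hepatokines, and *Fgf21*, *Inhba*, *Inhbb*, *Inhbc*, *Inhbe*, *Fst*, *Gdf15*, *Fetub*, *Lect2* and *Selenop* encode hepatokines or proteins of the activin family. These 10 genes were taken by symbol from the 54532 genes of the count table, with 1 row for each, and all 10 were among the 12289 genes that passed the filter on low counts (a CPM, the count scaled to library size, of 2 or more in 3 or more mice). All mice were male C57BL/6J animals made obese by 12 weeks of high-fat diet (HFD), after which they had Roux-en-Y gastric bypass (RYGB), in which a small stomach pouch is joined to the small intestine further down, or sham surgery. They were then kept for 8 weeks on chow or HFD, which gives Sham Chow and Sham HFD groups and RYGB Chow and RYGB HFD groups, each with 5 mice and 1 liver library per mouse. The Sham Chow mice had thus also been fed HFD before surgery. The Sham HFD mice were the heavy group at the end, so diet, body weight and the absence of bypass cannot be told apart in comparisons with them. The paper describes these liver transcriptomes as fasted-state ones. Age at sampling was not given in the sources used here.

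Activins are dimers of inhibin beta chains. *Inhba* and *Inhbb* encode the chains of activin A and activin B, which signal through type II and type I receptor kinases to SMAD2 and SMAD3, while *Inhbc* and *Inhbe* encode chains made mainly in the liver. *Fst* encodes follistatin, which binds and neutralises activins. FGF21 is a hormone of fasting and amino acid shortage that acts through FGF receptors with the co-receptor beta-Klotho, and GDF15 is a stress hormone that lowers food intake through GFRAL in the hindbrain. Fetuin-B (*Fetub*) is a cystatin-type protease inhibitor, LECT2 is a plasma protein first described as a neutrophil chemoattractant, and selenoprotein P (*Selenop*) carries selenium from the liver to other organs.

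The 250 bases before the transcription start were read from RefSeq (GRCm38.p6) for 9 of the 10 genes, all but *Fst*. The promoters of *Inhba* and *Fetub* are printed because these genes passed the test in both comparisons with Sham HFD and in the interaction of surgery and diet, and that of *Fgf21* because it holds a motif of stress-response factors. Each is given 5′ to 3′ on the strand of its gene, with motif matches in capitals.
Inhba, chr13:16011601-16011850, plus strand: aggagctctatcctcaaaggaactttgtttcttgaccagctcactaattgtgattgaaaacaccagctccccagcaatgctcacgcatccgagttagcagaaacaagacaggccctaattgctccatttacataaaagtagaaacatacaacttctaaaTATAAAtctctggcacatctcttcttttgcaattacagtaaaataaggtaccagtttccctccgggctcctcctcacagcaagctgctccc
Fetub, chr16:22918132-22918381, plus strand: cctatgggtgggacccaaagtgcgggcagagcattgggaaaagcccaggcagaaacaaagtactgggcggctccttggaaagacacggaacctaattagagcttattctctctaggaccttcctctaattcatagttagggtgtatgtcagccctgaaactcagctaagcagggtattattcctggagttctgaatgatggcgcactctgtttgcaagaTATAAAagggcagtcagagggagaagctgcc
Fgf21, chr7:45615491-45615740, minus strand: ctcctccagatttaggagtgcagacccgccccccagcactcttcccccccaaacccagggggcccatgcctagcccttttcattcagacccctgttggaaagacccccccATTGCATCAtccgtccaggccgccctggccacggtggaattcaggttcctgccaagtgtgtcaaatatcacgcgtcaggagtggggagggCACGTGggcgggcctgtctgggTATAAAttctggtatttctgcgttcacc
Both strands were searched for 7 motifs. The TATA box TATAAA began at position -91 of *Inhba*, -31 of *Fetub* and -28 of *Fgf21*, counted back from the start site, and 12.4% of the 32851 RefSeq promoters of the same length hold it. The C/EBP-ATF response element TGATGNAAT, through which ATF4 is known to act, was found in *Fgf21* alone of the 9, on the complementary strand from -140, and 0.816% of all promoters hold it. The E box CACGTG was found in *Fgf21* at -50, against 6.02% of all promoters. The cAMP response element TGACGTCA (1.55% of all promoters), a STAT site TTCNNNGAA (7.02%), an HNF4 site CAAAGTCCA (0.384%) and an antioxidant response element TGACNNNGC (10.2%) had no match in the 9 windows. The printed matches do not overlap each other, and a match describes these letters only, not a bound factor.

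Between 14604854 and 22537498 reads per mouse were assigned to genes, and 0 pairs of libraries were identical. RYGB Chow replicate 3 had the lowest median correlation with its own group (r = 0.969), closely followed by RYGB Chow replicate 5 (r = 0.970). Some of the differences and correlations that replicate 3 moves are given with and without it. Levels per exon length (RPKM, reads scaled to exon length and library size) differed widely among the 10 genes. In Sham Chow, *Selenop* stood at 2001 ± 104 RPKM (mean ± SD, n = 5), *Fetub* at 244 ± 19.6, *Lect2* at 77.8 ± 18.0, *Inhbc* at 24.2 ± 9.28 and *Inhbe* at 18.0 ± 4.55. *Gdf15* stood at 4.90 ± 2.30, *Inhba* at 1.54 ± 0.256, *Inhbb* at 0.479 ± 0.172 and *Fst* at 0.390 ± 0.107. The per-length level of *Inhbe* depends on the gene model, since its RefSeq start lies 2563 bases inside the GENCODE gene used here. Comparisons of 1 gene between groups do not depend on length and are given in CPM, read counts scaled to library size with edgeR's TMM factors.

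**Figure D1:**
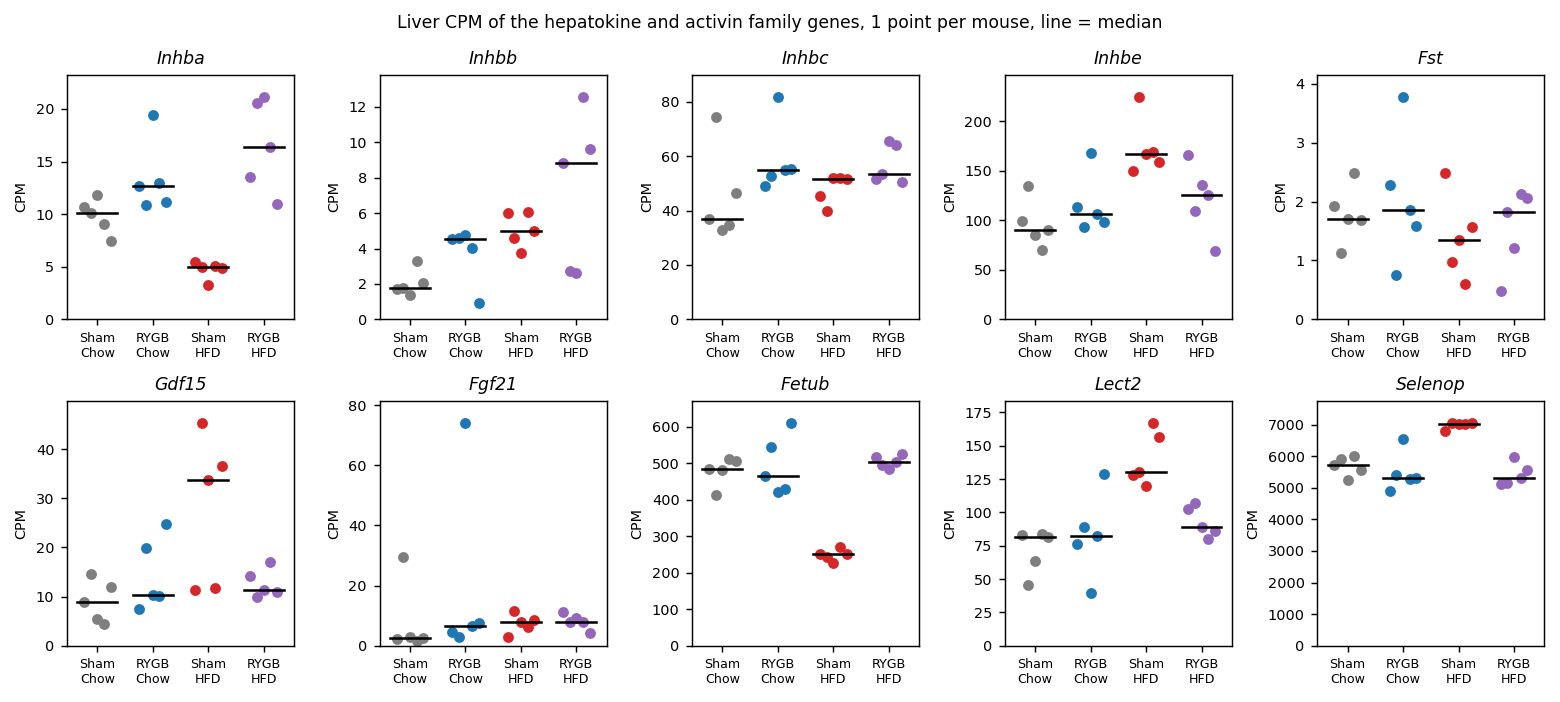
Liver CPM (vertical axes) of the 10 genes in the 4 groups, with 1 point per mouse and a line at the median of 5 mice. *Inhba* and *Fetub* lie lowest and *Selenop* highest in Sham HFD, while 1 mouse of Sham Chow (29.6 CPM) and 1 of RYGB Chow (74.0 CPM) stand far above the others for *Fgf21*.

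The HFD surgery comparison, of Sham HFD with RYGB HFD, asks how livers differed after bypass on the high-fat diet. *Inhba* and *Fetub* were higher and *Selenop* was lower in RYGB HFD, so 3 of 10 genes were called at an adjusted p under 0.05 by edgeR, against 16.4% of all tested genes (8.54% higher, 7.9% lower). The sham diet comparison, of Sham Chow with Sham HFD, asks how livers differed by diet without bypass. There 7 of 10 genes were called, against 21.6% of all tested genes. *Inhbb*, *Inhbe*, *Gdf15*, *Lect2* and *Selenop* were higher in Sham HFD (10.9% of all tested genes were), and *Inhba* and *Fetub* were lower (10.7%). Both comparisons use the same Sham HFD mice, so their opposite directions are not independent of each other. In the chow surgery comparison, of Sham Chow with RYGB Chow, 0 of 10 genes were called by edgeR (0.057% of all tested genes), with 3 at an unadjusted p under 0.05 and 0 called by DESeq2. In the RYGB diet comparison, of RYGB Chow with RYGB HFD, 0 of 10 were called by edgeR (3.65% of all tested genes), with 1 at an unadjusted p under 0.05 and 0 called by DESeq2.

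Over the 10 genes, the median size of the log2 fold change was 0.90 in the sham diet comparison and 0.52 in the HFD surgery comparison, beside 0.20 and 0.18 over all tested genes. It was 0.33 in the chow surgery comparison and 0.18 in the RYGB diet comparison, beside 0.11 and 0.14. The groups did not overlap for *Inhba*, *Fetub*, *Lect2* and *Selenop* in the HFD surgery comparison, 4 of 10 genes against 14.7% of all tested genes. They did not overlap for *Inhba*, *Inhbb*, *Inhbe*, *Fetub*, *Lect2* and *Selenop* in the sham diet comparison, 6 of 10 against 16.5%. This was so for 0 of 10 in the chow surgery comparison (1.33% of all tested genes) and 0 of 10 in the RYGB diet comparison (5.05%). The interaction, which is the diet difference in RYGB mice less that in sham mice, was called for *Inhba* and *Fetub*, 2 of 10 genes against 5.06% of all tested genes. Scaling by library size alone moved the median log2 fold change of all tested genes by 0.0151 to 0.13 in the 4 comparisons and by 0.14 in the interaction. It turned the split of all calls from 1050 higher and 971 lower to 546 and 1494 in the HFD surgery comparison, from 1337 and 1319 to 2262 and 556 in the sham diet comparison, and from 305 and 317 to 151 and 590 in the interaction. Each call of the 10 genes kept its direction and stayed called under that scaling.

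**Figure D2:**
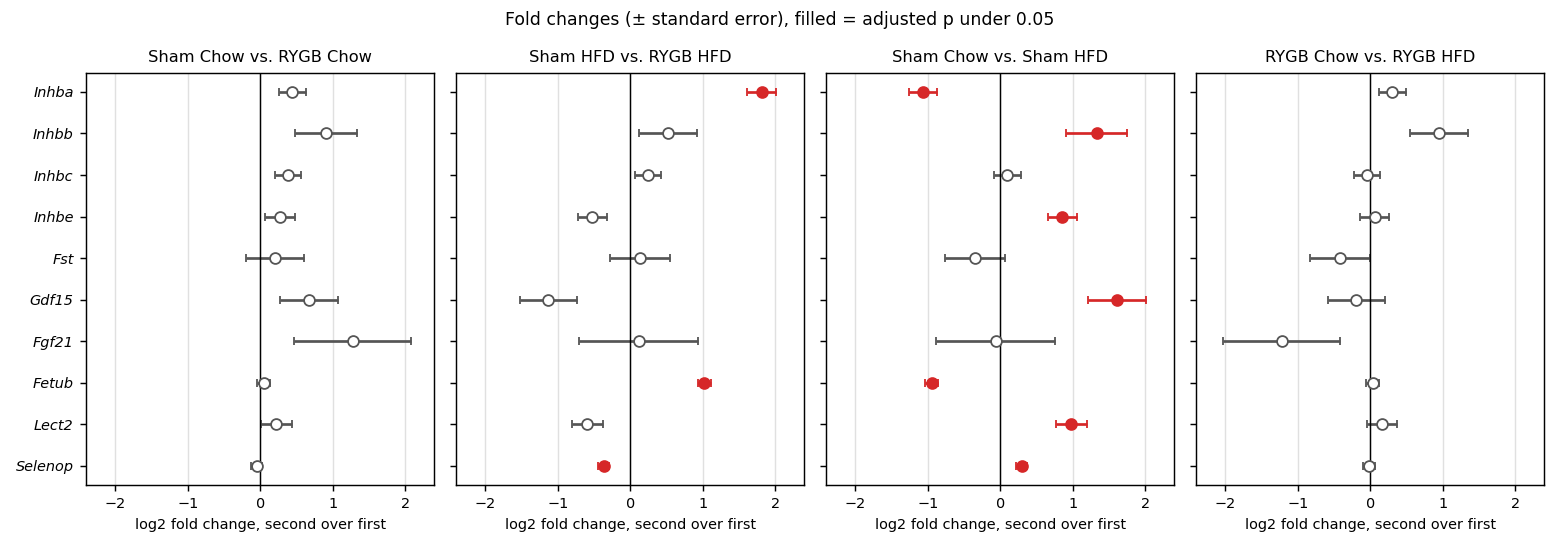
Log2 fold changes of the 10 genes (horizontal axes, second group over first) with standard errors from 1 edgeR model of 20 mice, in 4 panels, 1 per comparison. Filled red points passed an adjusted p of 0.05, with 3 genes in the HFD surgery comparison, 7 in the sham diet comparison and 0 in the other panels.

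*Inhba* (ENSMUSG00000041324, chromosome 13 from 16011851 to 16031621, plus strand, mm10) was the inhibin beta gene with the largest difference between Sham HFD and RYGB HFD. Its CPM was 5.43, 4.98, 3.24, 5.08 and 4.90 in Sham HFD and 13.5, 20.6, 21.2, 16.4 and 11.0 in RYGB HFD. Every RYGB HFD mouse stood above every Sham HFD mouse, with a log2 fold change of 1.81 (standard error, SE, 0.20, adjusted p = 6.35e-06), or 3.51-fold. In Sham Chow it was 10.7, 10.1, 11.8, 9.11 and 7.49, also above all Sham HFD mice, with a log2 fold change in the sham diet comparison of -1.07 (SE 0.20, adjusted p = 8.54e-04). RYGB Chow stood at 12.7, 10.8, 19.4, 12.9 and 11.2. The difference of RYGB Chow from Sham Chow (0.44, SE 0.19, adjusted p = 0.402) did not pass and was 0.27 without RYGB Chow replicate 3. The interaction was 1.37 (SE 0.27, adjusted p = 0.00704). In order of medians, Sham HFD stood apart from Sham Chow, while the neighbours Sham Chow, RYGB Chow and RYGB HFD overlapped. Antisense genes that overlap *Inhba* held at most 7 counts in a mouse, beside 77 or more for *Inhba*.

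*Inhbb* (ENSMUSG00000037035, chromosome 1 from 119415465 to 119422248, minus strand) differed in the other direction between the sham groups. Its CPM was 1.73, 1.75, 1.38, 3.27 and 2.05 in Sham Chow and 6.01, 4.61, 3.75, 6.03 and 4.98 in Sham HFD, with no overlap. The log2 fold change was 1.33 (SE 0.42, adjusted p = 0.0290). That call was lost without Sham Chow replicate 1, 2, 3 or 5 or Sham HFD replicate 1 or 4, with an adjusted p of up to 0.0727, and with limma-voom (adjusted p = 0.0659). In RYGB Chow the CPM was 4.56, 4.57, 4.77, 4.05 and 0.903, and in RYGB HFD it was 8.84, 2.75, 2.64, 12.6 and 9.61, so both bypass groups held low mice beside high ones. The differences of RYGB Chow from Sham Chow (0.91, adjusted p = 0.450) and of RYGB HFD from RYGB Chow (0.94, adjusted p = 0.206) did not pass.

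These low mice were also low in markers of the liver sinusoidal endothelium. The summed CPM of 7 such markers was 300, 206, 279, 283 and 96.7 in RYGB Chow replicates 1 to 5 and 283, 132, 105, 255 and 313 in RYGB HFD replicates 1 to 5. RYGB Chow replicate 5 and RYGB HFD replicates 2 and 3, the lowest of their groups in *Inhbb*, were the lowest in this sum. Over the 20 mice, *Inhbb* had r = 0.69 with the sum, and r = 0.89 once group means were removed, which describes mice that share groups and was looked at after the values were seen. The 2 tested genes whose log2 CPM followed *Inhbb* most closely were *Btnl9* (r = 0.91, 20 mice) and *Pxdn* (r = 0.88). The marker sum overlapped between groups, ranging from 160 to 250 in Sham Chow, 96.7 to 300 in RYGB Chow, 191 to 316 in Sham HFD and 105 to 313 in RYGB HFD. Of the 7 markers, 0 were called by edgeR in any of the 4 comparisons, where 0.057% to 21.6% of all tested genes were. Throughout a group, 0 were at 0 counts. The part of endothelial content in the values of *Inhbb* was not tested. In bulk liver, fewer cells of a type and less RNA per cell cannot be told apart.

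*Inhbe* and *Inhbc* are neighbours on the minus strand of chromosome 10, from 127348857 to 127354411 and from 127356322 to 127370431. *Inhbe* (ENSMUSG00000047492) was higher in Sham HFD, at 150, 225, 167, 169 and 159 CPM, than in Sham Chow, at 99.5, 135, 84.8, 70.1 and 90.7 CPM. The groups did not overlap, with a log2 fold change of 0.86 (SE 0.20, adjusted p = 0.00544). *Inhbe* was at 113, 92.9, 168, 107 and 98.4 in RYGB Chow and 166, 109, 136, 125 and 68.9 in RYGB HFD. The difference of RYGB HFD from Sham HFD (-0.52, SE 0.20, adjusted p = 0.0837) did not pass, but it did with DESeq2 (adjusted p = 0.0450) and without RYGB HFD replicate 1 (adjusted p = 0.0343). *Inhbc* (ENSMUSG00000025405) had means of 48.1 ± 5.29 CPM in Sham HFD, 57.0 ± 7.19 in RYGB HFD, 45.0 ± 17.2 in Sham Chow and 58.8 ± 13.1 in RYGB Chow (SD, n = 5 each), and none of its 4 comparisons was called. Between the sham groups it differed by 0.10 (SE 0.18, adjusted p = 0.738). The antisense gene that spans both held at most 10 counts in a mouse, beside 485 or more for either gene.

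The balance between the chains was taken as a ratio of RPKM within each mouse. *Inhba* per *Inhbb* had a median of 3.84 (range 1.85 to 5.68) in Sham Chow, 2.13 (1.58 to 8.24) in RYGB Chow and 1.02 (0.762 to 5.33) in RYGB HFD. In Sham HFD the median was 0.602 (0.560 to 0.719), below each of the other 15 mice. *Inhbe* per *Inhbc* had medians of 0.709, 0.679 and 0.714 in Sham Chow, RYGB Chow and RYGB HFD, and of 1.14 (1.08 to 1.96) in Sham HFD, whose range overlapped that of RYGB HFD (0.478 to 1.12). *Inhbc* and *Inhbe* made up most of the inhibin beta RNA on this scale in every group. The size of the *Inhbe* per *Inhbc* ratio and the shares below depend on the gene model of *Inhbe*. The order of the mice in that ratio does not. The share of *Inhba* among the 4 genes had a median of 1.28% in Sham HFD, 4.04% in RYGB HFD, 4.13% in Sham Chow and 3.80% in RYGB Chow.

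**Figure D3:**
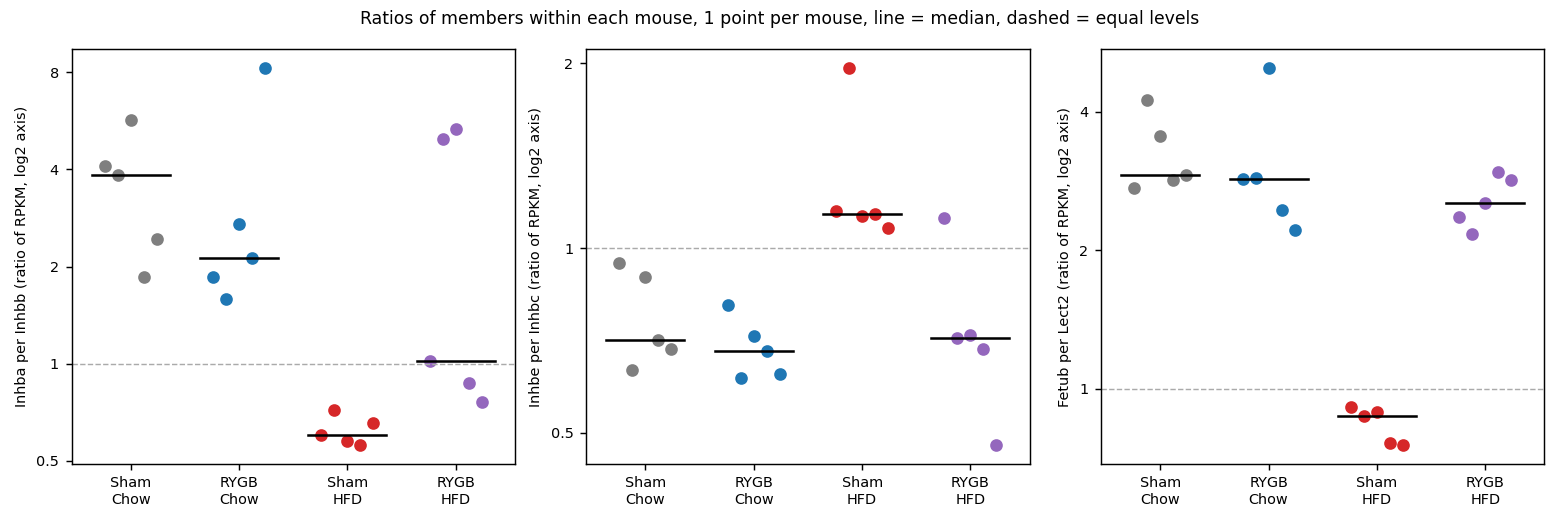
Ratios of RPKM within each mouse on log2 axes, for *Inhba* per *Inhbb*, *Inhbe* per *Inhbc* and *Fetub* per *Lect2*, with 1 point per mouse, a line at the group median and a dashed line at a ratio of 1. The Sham HFD mice lie lowest for *Inhba* per *Inhbb* (0.560 to 0.719) and for *Fetub* per *Lect2* (0.755 to 0.912), without overlap with the other groups. For *Inhbe* per *Inhbc*, the place of the points against the dashed line depends on the gene model of *Inhbe*.

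*Fst* (ENSMUSG00000021765, chromosome 13 from 114452290 to 114458951, minus strand), the activin antagonist, was near the filter in all groups. Its CPM ranged from 1.14 to 2.49 in Sham Chow, 0.752 to 3.78 in RYGB Chow, 0.597 to 2.49 in Sham HFD and 0.488 to 2.12 in RYGB HFD, on 9 to 69 counts per mouse. None of its comparisons was called, the largest being -0.42 (SE 0.41, adjusted p = 0.636) in the RYGB diet comparison, and differences within such errors were not detectable at this depth.

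Of the 10 listed antagonists, 6 could be tested. In RYGB HFD mice, 1 of the 6 was called higher and 2 lower than in Sham HFD mice, beside 16.4% of all tested genes called. In the sham diet comparison 1 was higher and 1 lower, beside 21.6% called. The values of the gene called higher in RYGB HFD are not reported here. *Fstl1*, a secreted follistatin-like protein, was lower in RYGB HFD mice than in Sham HFD mice (-0.85, SE 0.21, adjusted p = 0.00673) and higher in Sham HFD than in Sham Chow (1.16, SE 0.21, adjusted p = 5.93e-04). The protease gene *Htra1* was lower in RYGB HFD mice than in Sham HFD mice (-1.33, adjusted p = 0.0309), and lost its call in 5 of the 20 fits that each left out 1 mouse, with an adjusted p of up to 0.0890 without Sham HFD replicate 1, and with the replicate block (adjusted p = 0.0565). The median log2 fold change of the 6 was 0.08 in the HFD surgery comparison and 0.09 in the sham diet comparison, beside 0.01 and -0.00463 over all tested genes. *Fstl1* was also called in the interaction, at -1.11 (adjusted p = 0.0327), a call lost in 7 of 20 fits without 1 mouse, with an adjusted p of up to 0.0610 without Sham HFD replicate 4.

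The activin receptors held calls of 2 genes in the comparisons with Sham HFD. Of 11 tested receptors and co-receptors, 1 was called in the HFD surgery comparison and 2 in the sham diet comparison, beside 16.4% and 21.6% of all tested genes, with medians of 0.05 and 0.24. The type II receptor gene *Acvr2b* fell from 5.13 ± 1.26 CPM in Sham Chow to 2.68 ± 0.934 in Sham HFD (-0.94, SE 0.26, adjusted p = 0.0132). It was at 4.87 ± 0.697 in RYGB HFD (0.86 above Sham HFD, SE 0.26, adjusted p = 0.0252), a call lost in 5 of 20 fits without 1 mouse, with an adjusted p of up to 0.0700 without Sham HFD replicate 5. *Acvrl1*, a type I receptor of endothelium, was higher in Sham HFD than in Sham Chow (0.66, adjusted p = 0.0340), and lost its call in 6 of those fits, with an adjusted p of up to 0.0912 without Sham Chow replicate 5, and with limma-voom, no filter and a model of these 2 groups, with an adjusted p of up to 0.0698. The related ligand gene *Tgfb1* was higher in Sham HFD than in Sham Chow (0.93, SE 0.19, adjusted p = 0.00192).

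Of 18 SMADs and feedback targets, all tested, 2 were called higher and 3 called lower in RYGB HFD mice than in Sham HFD mice (median 0.08), and 1 was higher and 1 lower in Sham HFD than in Sham Chow (median -0.04). The shares of all tested genes called were 16.4% in the HFD surgery comparison and 21.6% in the sham diet comparison. *Smad9*, a SMAD of the BMP branch, was at 3.96 ± 2.06 CPM in Sham HFD, 16.0 ± 12.1 in RYGB HFD, 28.6 ± 9.75 in Sham Chow and 22.1 ± 13.0 in RYGB Chow. It was lower in Sham HFD than in Sham Chow (-2.84, SE 0.47, adjusted p = 2.83e-04) and higher in RYGB HFD than in Sham HFD (1.99, SE 0.47, adjusted p = 0.00539). *Id1* and *Id3*, targets of BMP signalling, were lower in RYGB HFD mice than in Sham HFD mice (-1.49, adjusted p = 0.00625, and -1.12, adjusted p = 0.0193), the call of *Id3* being lost without Sham HFD replicate 2 (adjusted p = 0.0540). *Smad2* and *Smad3*, the SMADs of activins, were not called in any comparison or in the interaction.

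*Gdf15* (ENSMUSG00000038508, chromosome 8 from 70629393 to 70632456, minus strand) varied within Sham HFD. Its CPM there was 11.3, 45.3, 33.7, 11.6 and 36.6, beside 8.91, 14.7, 5.49, 4.49 and 11.8 in Sham Chow. Sham HFD replicates 2, 3 and 5 stood above all mice of the other groups, while replicates 1 and 4 lay within the Sham Chow range. The log2 fold change was 1.61 (SE 0.40, adjusted p = 0.00706), and it stayed called with each mouse left out in turn. RYGB Chow stood at 7.50, 19.8, 10.2, 10.2 and 24.8 and RYGB HFD at 14.3, 9.86, 11.4, 17.0 and 10.9. The difference of RYGB HFD from Sham HFD (-1.13, SE 0.39, adjusted p = 0.0520) did not pass. It passed with DESeq2 (adjusted p = 0.0480), scaling by library size (0.0319), no filter (0.0353), a filter at CPM 5 (0.0475) and a model of these 2 groups (0.0376), and with 1 mouse left out its adjusted p ran from 0.0205, without Sham HFD replicate 1, to 0.151, without Sham HFD replicate 2. Of the genes for its receptor complex, *Gfral* was at 0 counts in every mouse and *Ret* at 3 or fewer, so neither was tested.

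*Fgf21* (ENSMUSG00000030827, chromosome 7 from 45613886 to 45615490, minus strand) had no called difference, and single mice set its means. Its CPM was 2.21, 29.6, 2.91, 1.57 and 2.72 in Sham Chow and 4.40, 2.95, 74.0, 6.39 and 7.56 in RYGB Chow. It was 3.01, 11.7, 8.00, 6.15 and 8.57 in Sham HFD and 11.3, 7.79, 9.31, 7.90 and 4.24 in RYGB HFD. The chow groups each held 1 mouse far above the rest, Sham Chow replicate 2 and RYGB Chow replicate 3, while both HFD groups stayed within 3.01 to 11.7. The log2 fold change in the chow surgery comparison was 1.27 (SE 0.81, adjusted p = 0.602), -0.56 without RYGB Chow replicate 3 and 3.00 without Sham Chow replicate 2. That in the sham diet comparison was -0.07 (SE 0.82, adjusted p = 0.965), and 1.66 without Sham Chow replicate 2 (adjusted p = 0.132).

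The same 2 mice were high in other genes of the integrated stress response, the programme in which ATF4 induces genes of amino acid supply. *Asns*, asparagine synthetase, was at 10.1 CPM in Sham Chow replicate 2, where the other Sham Chow mice had 0.507 to 1.45. It was at 30.3 CPM in RYGB Chow replicate 3, where the others had 1.67 to 3.64. Of 15 tested genes of that list besides *Fgf21* and *Gdf15*, Sham Chow replicate 2 was the highest of its group in 8 and RYGB Chow replicate 3 in 11, which was looked at after the *Fgf21* values were seen. *Atf5* followed *Fgf21* most closely of the 15 (r = 0.84 over 20 mice, 0.81 after group means were removed). The latter was 0.64 without RYGB Chow replicate 3 and 0.30 without both mice.

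The liver-made inhibin beta genes were also high in these mice. *Inhbc* was higher in them than in the other 18 mice, at 74.4 and 81.8 CPM, and *Inhbe* was the highest of each group, at 135 and 168 CPM. *Lect2* was lower in them than in the other 18 mice, at 45.8 and 39.6 CPM, and *Fetub* was the lowest of each group, at 414 and 421 CPM. With group means removed, *Fgf21* had r = 0.79 with *Inhbc*, 0.78 with *Inhbe*, -0.70 with *Lect2* and -0.59 with *Fetub*, as a description over 20 mice. Without RYGB Chow replicate 3 these were 0.73, 0.72, -0.43 and -0.45, and without both mice they were 0.16, 0.69, 0.19 and -0.13, so that only the relation with *Inhbe* stayed above 0.5 in size among the other 18 mice. The hepatocyte marker sum of RYGB Chow replicate 3 was the lowest of its group (75259 CPM), and that of Sham Chow replicate 2 was the median of its group (95012 CPM). Both mice were the lowest of their group in the sum of red cell markers, at 99.4 CPM in RYGB Chow replicate 3 and 156 CPM in Sham Chow replicate 2, and RYGB Chow replicate 3 was the highest in that of Kupffer cell and macrophage markers (566 CPM, others 234 to 329). With group means removed, *Fgf21* had r = -0.66 with the red cell sum and 0.52 with the Kupffer cell sum over the 20 mice, and the part of these cells in its values was not tested.

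**Figure D4:**
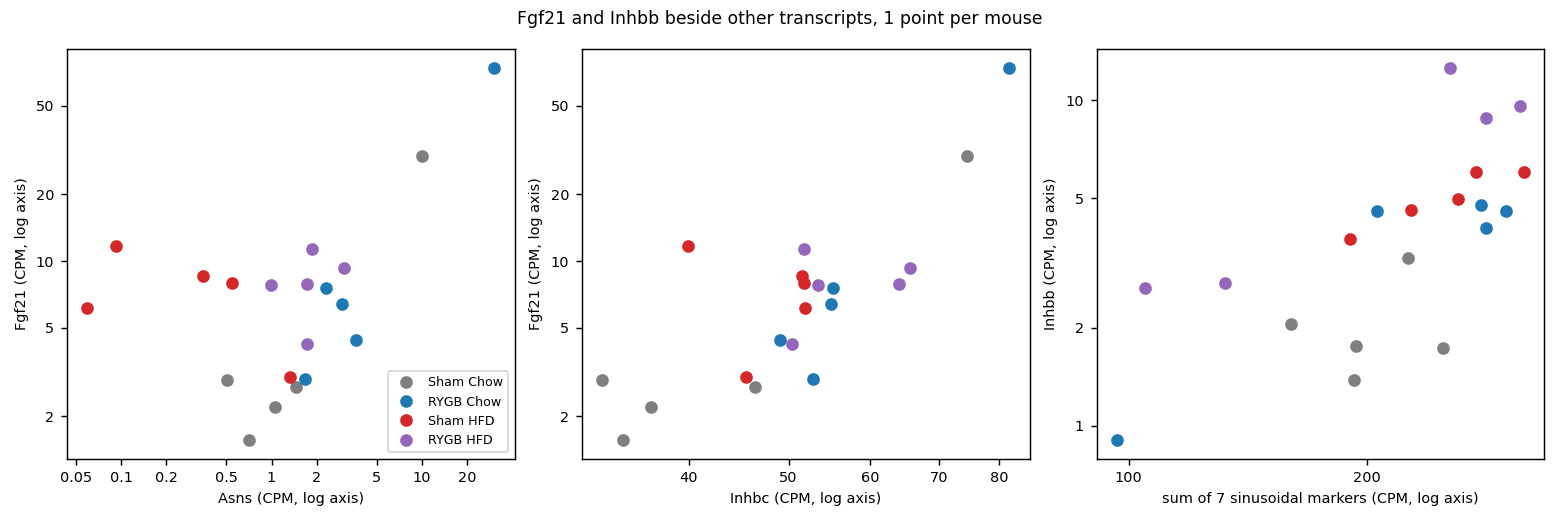
CPM of *Fgf21* against *Asns* and against *Inhbc*, and of *Inhbb* against the summed CPM of 7 sinusoidal endothelium markers, with 1 point per mouse coloured by group and log axes throughout. Sham Chow replicate 2 and RYGB Chow replicate 3 stand apart in the *Fgf21* panels (29.6 and 74.0 CPM), and the lowest *Inhbb* value (0.903 CPM) lies at the lowest marker sum (96.7 CPM).

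Across groups, genes of the integrated stress response and of FGF21 signalling were called in shares near or above those of all tested genes. Of 17 tested genes of the integrated stress response, 3 were lower in RYGB HFD mice than in Sham HFD mice (median of the list 0.04, with 16.4% of all tested genes called there), the lipoprotein receptor gene *Vldlr* (-1.77, SE 0.27, adjusted p = 1.54e-04), *Sesn2* (-0.80, SE 0.20, adjusted p = 0.00885) and *Atf3* (-1.51, SE 0.41, adjusted p = 0.0140). In the sham diet comparison 4 were higher, these 3 and *Gdf15*, and *Atf4* was lower (median 0.18, with 21.6% of all tested genes called). The call of *Atf4* (-0.36, adjusted p = 0.0302) was lost under scaling by library size (adjusted p = 0.229) and in 5 of 20 fits without 1 mouse, with an adjusted p of up to 0.0767 without Sham HFD replicate 1. Of 15 tested genes of FGF21 signalling, 4 were higher in RYGB HFD than in Sham HFD (median 0.28). Among them the receptor gene *Fgfr2* differed by 0.83 (SE 0.13, adjusted p = 2.00e-04), and *Mlxipl* and *Creb3l3*, which encode transcription factors of carbohydrate and fasting metabolism, by 0.46 (adjusted p = 0.00258) and 0.30 (adjusted p = 0.0113). The fourth, *Fgfr1* (0.93, adjusted p = 0.0259), lost its call in 5 of 20 fits without 1 mouse, with an adjusted p of up to 0.0697 without Sham HFD replicate 3. In the sham diet comparison 2 of the 15 were higher, the feedback targets of FGF signalling *Dusp6* (0.89, SE 0.19, adjusted p = 0.00281) and *Spry4* (0.87, adjusted p = 0.0174), and 3 were lower (median -0.07). These were *Creb3l3* (-0.34, adjusted p = 0.00447), *Mlxipl* (-0.32, adjusted p = 0.0240) and *Fgfr2* (-0.38, adjusted p = 0.0449). The calls of *Mlxipl* and *Fgfr2* there were lost under scaling by library size (adjusted p = 0.207 and 0.204) and in 3 and 10 of 20 fits without 1 mouse, with adjusted p values of up to 0.0689 without Sham Chow replicate 2 and 0.137 without Sham Chow replicate 1, and that of *Fgfr2* also with limma-voom, other filters and the replicate block. The co-receptor gene *Klb* was at 45.5 ± 5.84 CPM in Sham HFD, 52.4 ± 9.92 in RYGB HFD, 50.7 ± 9.13 in Sham Chow and 51.6 ± 10.6 in RYGB Chow and was not called.

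*Fetub* (ENSMUSG00000022871, chromosome 16 from 22918334 to 22939778, plus strand) was lower in Sham HFD than in every other group. Its CPM was 483, 414, 481, 511 and 506 in Sham Chow, 465, 545, 421, 431 and 610 in RYGB Chow and 517, 496, 484, 505 and 525 in RYGB HFD. In Sham HFD it was 250, 242, 228, 271 and 253, below each of the other 15 mice. RYGB HFD stood above Sham HFD by 1.02 on the log2 scale (SE 0.09, adjusted p = 5.37e-07), or 2.03-fold, and Sham HFD differed from Sham Chow by -0.95 (SE 0.09, adjusted p = 2.08e-06). RYGB and sham mice on chow differed by 0.05 (SE 0.09, adjusted p = 0.904), and RYGB mice on the 2 diets by 0.03 (SE 0.09, adjusted p = 0.903). The interaction was 0.98 (SE 0.13, adjusted p = 2.40e-04).

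Most other tested genes with cystatin domains were called in the direction of *Fetub* in the HFD surgery comparison, and fewer were in the sham diet comparison. Of 6 tested fetuin and cystatin-domain genes, *Fetub* included, 5 were higher in RYGB HFD than in Sham HFD (median 0.58, beside 16.4% of all tested genes called). In the sham diet comparison 3 were lower in Sham HFD (median -0.30, beside 21.6% called). Scaling by library size gave 5 higher and 1 lower, and 1 higher and 3 lower. *Ahsg*, which encodes fetuin-A, was at 3884 ± 225 CPM in Sham HFD, 6683 ± 186 in RYGB HFD, 5057 ± 622 in Sham Chow and 5682 ± 634 in RYGB Chow, with a log2 fold change of 0.78 in the HFD surgery comparison (SE 0.09, adjusted p = 9.45e-06). The kininogen genes *Kng1* and *Kng2* were higher by 0.65 (adjusted p = 2.71e-05) and 0.50 (adjusted p = 3.94e-04), and *Hrg*, histidine-rich glycoprotein, by 0.46 (adjusted p = 0.00274). In the sham diet comparison *Kng1* (-0.49, adjusted p = 3.88e-04) and *Ahsg* (-0.38, adjusted p = 0.00507) were called lower, while *Kng2* and *Hrg* were not called.

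Hepatocyte markers differed beside these genes. The summed CPM of 7 of them ranged from 72623 to 85248 in Sham HFD, 101945 to 120186 in RYGB HFD, 82188 to 101528 in Sham Chow and 75259 to 125003 in RYGB Chow. In the HFD surgery comparison, where 16.4% of all tested genes were called, 5 of the 7 were higher (*Serpina1a*, *Apoa1*, *Cyp2e1*, *Alb* and *Hnf4a*) and *Ttr* was lower. The call of *Hnf4a* was lost under scaling by library size (adjusted p = 0.0588) and without RYGB HFD replicate 5 (0.0532). In the sham diet comparison, with 21.6% of all tested genes called, 3 of the 7 were lower in Sham HFD. The part of these 7 markers in the result of *Fetub* was not tested. The 2 tested genes whose log2 CPM followed *Fetub* most closely encode complement proteins, *C1ra* (r = 0.96 over 20 mice, 0.82 once group means were removed) and *C8b* (r = 0.94, and 0.20 once they were removed).

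*Lect2* (ENSMUSG00000021539, chromosome 13 from 56542464 to 56548502, minus strand) was higher in Sham HFD than in Sham Chow. Its CPM was 128, 130, 120, 167 and 157 in Sham HFD and 82.9, 45.8, 63.6, 83.9 and 81.2 in Sham Chow. The groups did not overlap, with a log2 fold change of 0.98 (SE 0.21, adjusted p = 0.00295). In RYGB HFD it was 103, 107, 89.3, 79.9 and 86.4, also below every Sham HFD mouse, but the log2 fold change of -0.59 (SE 0.21, adjusted p = 0.0583) did not pass. It passed with DESeq2 (adjusted p = 0.0251), a model of these 2 groups (0.00212), scaling by library size (0.0167), no filter (0.0454), a filter at CPM 5 (0.0496), and without Sham Chow replicate 2, RYGB Chow replicate 5 or RYGB Chow replicate 3 (0.0117 for the last). RYGB Chow was the widest group, at 76.3, 88.8, 39.6, 82.3 and 129. The ratio of *Fetub* to *Lect2* RPKM had a median of 0.871 in Sham HFD (range 0.755 to 0.912), beside medians of 2.92, 2.85 and 2.54 in Sham Chow, RYGB Chow and RYGB HFD, where no mouse was below 2.17. With group means removed, *Fetub* and *Lect2* had r = 0.81 (0.78 without RYGB Chow replicate 3), while over the 20 mice they had r = -0.48. Of the 3 tested receptor genes of LECT2, 0 were called by edgeR in the HFD surgery comparison (16.4% of all tested genes) or the sham diet comparison (21.6%). *Met*, the receptor of hepatocyte growth factor, was higher in RYGB HFD than in RYGB Chow (0.36, adjusted p = 0.0458), a call lost in 15 of 20 fits without 1 mouse, with an adjusted p of up to 0.131 without RYGB HFD replicate 3, and under library size scaling, no filter, a model of these 2 groups and the replicate block, with an adjusted p of up to 0.122.

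*Selenop* (ENSMUSG00000064373, chromosome 15 from 3268547 to 3280508, plus strand) was the most abundant of the 10 genes, on 83726 or more counts per mouse, and its differences were small beside a narrow spread. Its CPM was 6783, 7049, 7028, 7030 and 7036 in Sham HFD, above each of the other 15 mice. It was 5715, 5908, 5253, 5996 and 5559 in Sham Chow, 4903, 5390, 6561, 5275 and 5312 in RYGB Chow and 5105, 5150, 5976, 5307 and 5548 in RYGB HFD. Sham HFD was higher than Sham Chow by 0.30 (SE 0.08, adjusted p = 0.00945), and the log2 fold change in the HFD surgery comparison was -0.37 (SE 0.08, adjusted p = 0.00242). The interaction (-0.32, SE 0.11, adjusted p = 0.0970) did not pass, but it did with DESeq2 (adjusted p = 0.0251) and scaling by library size (0.0375). *Ccdc152*, which overlaps *Selenop* by 439 bases on the opposite strand, held at most 361 counts in a mouse.

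Other selenoprotein genes were called in both directions. Of 20 tested, *Selenop* included, 5 were lower in RYGB HFD mice than in Sham HFD mice (median -0.11, beside 16.4% of all tested genes called). In the sham diet comparison 3 were higher and 2 lower (median -0.00243, beside 21.6% called). *Dio1*, a deiodinase of thyroid hormone, was at 247 ± 15.7 CPM in Sham HFD, 109 ± 27.2 in RYGB HFD, 98.1 ± 32.2 in Sham Chow and 95.9 ± 30.0 in RYGB Chow. It was higher in Sham HFD than in Sham Chow (1.33, SE 0.24, adjusted p = 6.05e-04) and lower among RYGB HFD mice than in Sham HFD mice (-1.18, SE 0.24, adjusted p = 0.00178). *Gpx4*, which reduces lipid peroxides, was lower in RYGB HFD mice than in Sham HFD mice (-0.65, SE 0.12, adjusted p = 5.95e-04), as was *Selenoh* (-0.69, adjusted p = 0.00731). *Selenos*, of the endoplasmic reticulum, was lower in Sham HFD than in Sham Chow (-0.64, SE 0.10, adjusted p = 1.15e-04), and *Gpx3*, the plasma glutathione peroxidase, was higher (0.72, adjusted p = 0.0119). Of 9 tested genes of selenium incorporation and uptake, 2 were higher in RYGB HFD than in Sham HFD (median 0.02) and 2 lower in Sham HFD than in Sham Chow (median -0.20). These counts stand beside the same 16.4% and 21.6% of all tested genes. Both calls in the HFD surgery comparison were lost under scaling by library size (adjusted p = 0.177 and 0.234). They were also lost in 7 and 9 of 20 fits without 1 mouse, in the same order. In the sham diet comparison 1 call was lost under that scaling (adjusted p = 0.213) and in 3 of those fits. The selenoprotein P receptor genes *Lrp8* and *Lrp2* did not pass the filter.

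Of 26 other tested hepatokine genes, 7 were called higher and 4 called lower in RYGB HFD mice than in Sham HFD mice (median -0.02), and 5 were higher and 8 lower in Sham HFD than in Sham Chow (median -0.18). Of all tested genes, 16.4% were called in the HFD surgery comparison and 21.6% in the sham diet comparison. *Igfbp2*, which binds insulin-like growth factors, was at 166 ± 32.4 CPM in Sham HFD, 1136 ± 367 in RYGB HFD, 602 ± 159 in Sham Chow and 931 ± 260 in RYGB Chow. Its log2 fold change was 2.78 in the HFD surgery comparison (SE 0.24, adjusted p = 5.08e-07) and -1.86 in the sham diet comparison (SE 0.23, adjusted p = 2.06e-05). *Enho*, which encodes adropin, and *Fgl1*, a fibrinogen-like protein, were higher in RYGB HFD than in Sham HFD (1.99, adjusted p = 3.86e-05, and 1.41, adjusted p = 6.18e-05). *Lcn2*, lipocalin-2 of the acute phase, was higher in Sham HFD than in Sham Chow (3.43, SE 0.47, adjusted p = 4.86e-05). *Igf1* and the lipase inhibitor gene *Angptl4* were lower there (-0.58, adjusted p = 6.98e-04, and -0.73, adjusted p = 0.00183). *Hamp*, which encodes the iron hormone hepcidin, was at 326 ± 88.7 CPM in Sham HFD, 0.184 ± 0.192 in RYGB HFD, 827 ± 196 in Sham Chow and 93.1 ± 197 in RYGB Chow. RYGB Chow replicate 3 alone stood at 446 CPM, and the other mice of that group at 1.07 to 10.7 CPM. The call of *Hamp* between RYGB HFD and Sham HFD (-10.66, adjusted p = 1.66e-04) held under every alternative, while that between RYGB HFD and RYGB Chow (-8.86, adjusted p = 0.00372) was lost with limma-voom and a model of these 2 groups, with an adjusted p of up to 0.380.

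Markers of other cells were compared beside the genes that were higher in Sham HFD. For scale, 21.6% of all tested genes were called in the sham diet comparison and 16.4% in the HFD surgery comparison. Of 9 markers of stellate cells and fibroblasts, 8 were higher in Sham HFD than in Sham Chow, and 1 was called higher and 4 called lower in RYGB HFD mice than in Sham HFD mice. Their sum was 224 to 323 CPM in Sham Chow, 292 to 344 in RYGB Chow, 408 to 500 in Sham HFD and 303 to 434 in RYGB HFD. Of 8 Kupffer cell and macrophage markers, 5 were higher in Sham HFD than in Sham Chow, with sums of 273 to 369 CPM in Sham HFD, 240 to 439 in RYGB HFD, 112 to 298 in Sham Chow and 234 to 566 in RYGB Chow. The sums of both bypass groups thus reached above those of Sham HFD, and 0 of the 8 were called by edgeR in the HFD surgery comparison. In the sham diet comparison *Cd5l*, *Csf1r* and *Clec4f* lost their calls in 4, 3 and 6 of 20 fits without 1 mouse. There *Reln*, *Ecm1* and *Des* lost theirs in 4, 7 and 15 of those fits, with an adjusted p of up to 0.586 for *Des*. In the HFD surgery comparison *Dcn* and *Pdgfrb* lost their calls in 10 and 12 of those fits. In both lists 0 markers were at 0 counts throughout a group. The sum of 5 adipocyte markers was 6.21 to 36.5 CPM in Sham HFD and at most 11.0 elsewhere, with *Adipoq*, *Lep* and *Retn* at 0 in both chow groups. Only 1 of the 5, *Cidea*, passed the filter on low counts, and *Adipoq*, *Plin1*, *Lep* and *Retn* did not. The sum therefore cannot stand for adipocyte content. The part of these cells in the values of *Inhbe*, *Gdf15*, *Lect2* and *Selenop* was not tested. The genes whose log2 CPM followed the called members most closely over the 20 mice were *Sort1* (r = 0.92) and *C8a* (0.90) for *Inhba*, *Gadd45a* (0.87) and *Prcp* (0.84) for *Inhbe*, *Plvap* (0.76) and *Ywhah* (0.76) for *Gdf15*, *Orm3* (0.90) and *Bphl* (0.89) for *Lect2*, and *Pcsk6* (0.87) and *Lrrc59* (0.87) for *Selenop*. Such values hold group differences as well as variation between mice.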

How the data were processed

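Poly-A RNA of 1 snap-frozen liver per mouse was sequenced with a strand-marking (dUTP) kit, in livers drawn at random within each group from a larger cohort. The deposited values are raw read counts per Ensembl gene, which the authors made with Trimmomatic 0.36, HISAT2 2.1.0 (mm10) and featureCounts 1.5.0-p3, per the submitters' processing notes. The annotation release, strand setting and treatment of reads with several matches were not given in the sources used here. GENCODE M21 gave symbols for 54495 of 54532 genes, and RPKM used the union of exons. Group labels came from the sample titles, and nothing in them marks a batch.

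Genes that reached a CPM of 2 in 3 or more mice were tested with edgeR 4.0.16 (R 4.3.3; TMM, quasi-likelihood test, 1 model of 20 mice) with Benjamini-Hochberg adjustment over 12289 genes and a threshold of 0.05. The common biological coefficient of variation was 0.1811. The code was tested on simulated data. Alternatives were DESeq2 1.42.0, limma-voom 3.58.1, other scalings, filters and samples, a replicate block, and leaving out each mouse. Correlations used log2 CPM with a prior count of 2. Figures used matplotlib 3.10.9.

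The 10 genes and all gene lists were chosen with earlier results of these data known. Named genes are the 10 members, up to 4 called genes with the smallest adjusted p per list and comparison, and the 2 genes most like each called member, and *Klb*, *Asns*, *Atf4*, *Atf5*, *Fgfr1*, *Hamp*, *Met*, *Smad2* and *Smad3* were in part named after their values were seen. The values of 1 list gene are not reported here.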

Additional observations from a re-analysis of the deposited data

Results flagged for a closer look

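In 9 of 40 groups of 5 mice, 1 mouse stood apart from the other 4 by more than 0.71 of the range of its group, where chance marks about 1 in 20 groups. RYGB Chow replicate 3 did so for *Fgf21* (74.0 CPM, others 2.95 to 7.56), *Inhba* (19.4, others 10.8 to 12.9), *Inhbc* (81.8, others 49.1 to 55.3) and *Inhbe* (168, others 92.9 to 113). Sham Chow replicate 2 did so for *Fgf21* (29.6, others 1.57 to 2.91), and RYGB Chow replicate 5 for *Inhbb* (0.903, others 4.05 to 4.77). In Sham HFD, replicate 3 was low in *Inhba* (3.24, others 4.90 to 5.43), replicate 2 high in *Inhbe* (225, others 150 to 169) and replicate 1 low in *Selenop* (6783, others 7028 to 7049). The *Selenop* gap is small in absolute terms, in a group with a coefficient of variation of 1.62%.

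The diet difference was not the same in RYGB and sham mice for *Inhba*, with an interaction of 1.37 on the log2 scale (edgeR adjusted p = 0.00704), or for *Fetub*, with 0.98 (adjusted p = 2.40e-04). Both kept this sign and call with each mouse left out in turn.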

How the results depend on the processing

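Of the fits of the 10 genes that left out 1 mouse, 952 kept direction and side of the threshold, 15 gained a call, 6 lost one and 27 changed sign, and of those with other settings 355, 17, 1 and 7 did so. The cause of these changes was not tested. All sign changes were in differences that were not called. Sign changes gave, for *Fgf21* in the sham diet comparison, 0.82 (limma-voom), 0.037 (library size only) and 0.36 (replicate block), for the *Fst* interaction 0.017 (limma-voom) and 0.038 (replicate block), for *Gdf15* in the RYGB diet comparison 0.015 (replicate block), and for *Selenop* in the chow surgery comparison 0.0062 (library size only). With 1 mouse left out, *Fgf21* ranged from -0.56 to 3.00 in the chow surgery comparison, -0.091 to 0.33 in the HFD surgery comparison, -0.32 to 1.66 in the sham diet comparison, -1.50 to 0.61 in the RYGB diet comparison and -2.89 to 0.67 in the interaction. *Fst* ranged from -0.14 to 0.41 in the chow surgery comparison, -0.046 to 0.42 in the HFD surgery comparison and -0.28 to 0.26 in the interaction, *Fetub* from -0.041 to 0.098 in the chow surgery comparison, and the *Inhbc* interaction from -0.40 to 0.000967. In the RYGB diet comparison the ranges were -0.10 to 0.10 for *Inhbc*, -0.080 to 0.23 for *Inhbe*, -0.36 to 0.082 for *Gdf15*, -0.025 to 0.11 for *Fetub*, -0.019 to 0.37 for *Lect2* and -0.057 to 0.049 for *Selenop*. Of the 10 genes, the HFD surgery comparison called 6 with DESeq2, 5 each with library size only, no filter, CPM of at least 5 and only the groups of the contrast, 6 at an unadjusted p under 0.05, and 3 to 5 with 1 mouse left out. The interaction called 4 with DESeq2, 5 with library size only, 6 at an unadjusted p under 0.05, and 2 to 4 with 1 mouse left out. At an unadjusted p under 0.05, 3 genes were called in the chow surgery comparison and 1 in the RYGB diet comparison. The sham diet comparison called 6 to 7 with 1 mouse left out. Of all tested genes, the chow surgery comparison called 7, with 92 by DESeq2, 3 by limma-voom, 13 with no filter, 0 with only the groups of the contrast, 0 at an adjusted p under 0.01, 1325 at an unadjusted p under 0.05 and 0 to 15 with 1 mouse left out. The RYGB diet comparison called 448, with 751 by DESeq2, 184 with only the groups of the contrast, 120 at an adjusted p under 0.01, 2308 at an unadjusted p under 0.05 and 244 to 487 with 1 mouse left out. At an adjusted p under 0.01 and an unadjusted p under 0.05, the HFD surgery comparison called 1015 and 3772, the sham diet comparison 1223 and 4392, and the interaction 162 and 2552 (377 to 803 with 1 mouse left out). The labels do not say what the replicate numbers mean. Correlations between mice showed no sign of pairing, with 5 of 30 same-numbered pairs at r over 0.1 (median -0.01). Of 20 mice, 3 were most like a mouse of their own number. Shared handling of same-numbered mice was not tested. With the replicate block, 8, 1905, 2538, 367 and 492 tested genes were called in the order the chow surgery comparison, the HFD surgery comparison, the sham diet comparison, the RYGB diet comparison and interaction, and 0, 3, 7, 0 and 2 of the 10 genes. DESeq2 gave no adjusted p for *Fgf21*, and CPM of at least 5 left out *Fst*. Of 146 calls of list genes over the comparisons and the interaction (88 genes), 93 held under every alternative run and 0 changed sign. Correlations after removing group means were also taken without RYGB Chow replicate 3 and without both mice high in *Fgf21*, chosen after seeing the data, and without both changed sign for *Fgf21* with *Lect2* (0.19, and -0.43 without the former mouse alone) and *Fetub* with *C8b* (-0.020, and 0.15). The alternative pseudocounts were not run, since all 10 genes passed the filter. Depth limits *Fst* and *Inhbb* most, on as few as 9 and 16 counts.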
